A study of Homo sapiens with 6 samples.

Results

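MALAT1 and NEAT1, a neighbouring pair of nuclear long noncoding RNAs (lncRNAs), were examined in PANC-1 cells together with NONO, SFPQ and PSPC1, the proteins that build paraspeckles on NEAT1. These 5 genes were taken by name from the 58735 genes of the deposited RNA-seq table, and each passed the filter on low counts that left 15089 genes to be tested. PANC-1 is an established line of human pancreatic adenocarcinoma cells with duct-like features. The comparison was between 3 si-NC samples, given control siRNA, and 3 si-METTL16 samples, given siRNA against METTL16. The methods call the cells stably transfected and the samples biological triplicates, while a second label of the controls reads WT. The sample titles number the si-METTL16 samples as the study numbers its siRNAs against METTL16, and whether the numbers correspond is not stated. If they do, the 3 si-METTL16 samples had 3 different siRNAs, and their SD holds differences between siRNAs as well as between replicates. All samples came from this 1 cell line. The methods describe puromycin selection for stable knockdown or overexpression, and whether the sequenced cells were selected is not given. The time after transfection and the siRNA sequence used for sequencing are not given in the sources used here.

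METTL16 is an RNA methyltransferase that recognises structured RNA. It is known to bind the triple helix at the 3′ end of MALAT1, a structure in which a tract of A bases lies between a pair of U-rich motifs and protects an RNA that has no poly(A) tail. MALAT1 accumulates in nuclear speckles, where splicing factors are stored. The long NEAT1 isoform ends in a similar triple helix and forms the scaffold of paraspeckles, whereas the short NEAT1 isoform is polyadenylated. RNase P cuts both RNAs just after the A-rich tract and releases a small tRNA-like RNA, called mascRNA for MALAT1 and menRNA for NEAT1.

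The 3′ ends are shown because they hold the structure through which METTL16 is known to contact MALAT1. In the GRCh38 genome, the U-rich and A-rich motifs of MALAT1 lie at chr11:65506031-65506116 on the plus strand, inside the gene, and those of NEAT1 lie at chr11:65445453-65445540 on the plus strand, at the last base of the gene in the deposited table. Capitals mark, from 5′ to 3′, the first U-rich motif, the second U-rich motif and the A-rich tract, written with T for U.
MALAT1 triple helix: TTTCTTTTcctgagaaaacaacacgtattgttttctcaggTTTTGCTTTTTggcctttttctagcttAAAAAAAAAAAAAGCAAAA
NEAT1 triple helix: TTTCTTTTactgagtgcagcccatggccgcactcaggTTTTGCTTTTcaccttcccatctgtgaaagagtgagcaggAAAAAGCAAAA
The tRNA-like RNAs begin at the next base, at chr11:65506117-65506173 for MALAT1 and chr11:65445541-65445598 for NEAT1.
mascRNA: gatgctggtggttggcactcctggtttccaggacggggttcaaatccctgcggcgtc
menRNA: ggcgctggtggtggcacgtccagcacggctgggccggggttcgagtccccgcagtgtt

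The first U-rich motif was the same in both RNAs, and the A-rich tract of MALAT1 was the longer. A global alignment of mascRNA and menRNA matched 40 of 59 columns, or 67.8%. The search took TTTCTTTT with any further T on either side, then TTTTGCTTTT, then at least 5 A followed by GCAAAA, in that order within 150 bases of the sense strand. Of 62700 genes in GENCODE v44, each represented by its longest transcript, 2 held this arrangement (0.00319%), and these were MALAT1 and NEAT1, from which the letters had been taken. The nonamer UACAGAGAA, the sequence that METTL16 methylates in the hairpins of MAT2A mRNA, occurred 0 times in the sense strand of either lncRNA. It was found in 7.3% of 5984 longest transcripts of 5000 to 25000 bases.

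The level of METTL16 was checked first. METTL16 was at 91.5, 96.7 and 101 CPM, the count scaled to a common library total by the TMM method, in si-NC replicates 1, 2 and 3, and at 34.8, 33.9 and 34.9 CPM in the si-METTL16 replicates. The mean in the si-METTL16 samples was 35.9% of the control on the fitted scale (log2 fold change -1.48, SE 0.07, adjusted p = 8.3e-05 by edgeR), so all 3 si-METTL16 libraries carried the knockdown to a similar degree. Library totals ranged from 15725298 to 18054436 counts, and 3 counts corresponded to 0.166 to 0.191 CPM. Mitochondrial genes held 5.36% to 5.60% of counts in si-NC and 4.91% to 5.25% in si-METTL16 samples, and histone genes 0.0844% to 0.0881% and 0.0967% to 0.103%. Their part in the results was not tested. The epithelial keratins KRT8, KRT18 and KRT19 were at 886 counts or more in every library and the ductal keratin KRT7 at 58 to 133. KRT8 and KRT18 overlapped between the groups. KRT19 was lower in si-METTL16, at 54.0 to 84.6 CPM against 165 to 213 CPM in si-NC. KRT7 was too, at 58 to 65 counts against 92 to 133. Whether these differences bear on the 5 genes was not tested. The immune, endothelial, hepatic, endocrine and acinar markers PTPRC, CD3E, PECAM1, ALB, INS, GCG and PRSS1 had at most 5 counts each.

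MALAT1 did not pass the test between the groups. It was high in 2 of the 3 si-METTL16 samples and very low in the third. MALAT1 (ENSG00000251562, chr11:65497688-65506516, plus strand) had 951, 1685 and 1091 counts in the si-NC replicates and 2325, 2064 and 119 counts in si-METTL16 replicates 1, 2 and 3. After scaling, these were 56.3, 99.3 and 62.2 CPM in si-NC and 142, 132 and 6.62 CPM in si-METTL16. Replicates 1 and 2 of si-METTL16 lay above every control, replicate 3 lay below every control, and the groups therefore overlapped. The means were 72.6 ± 23.3 and 93.5 ± 75.4 CPM (SD, n = 3 each), a log2 fold change of 0.36 with an SE of 0.85 and an adjusted p of 0.767 by edgeR's quasi-likelihood test. The 95% interval ran from -1.64 to 2.37, which includes a fall and a rise of more than 2-fold in MALAT1. In RNA from a whole culture, a change in every cell and a change in some of the cells cannot be told apart.

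Among the 5 genes, 1 passed the threshold of an adjusted p under 0.05, and it was higher in si-METTL16. Of all 15089 genes, 35.9% passed that threshold, 18.4% as higher and 17.5% as lower, and 50.9% had groups that did not overlap. It was SFPQ, which was also the gene of the 5 whose groups did not overlap.

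**Figure D1:**
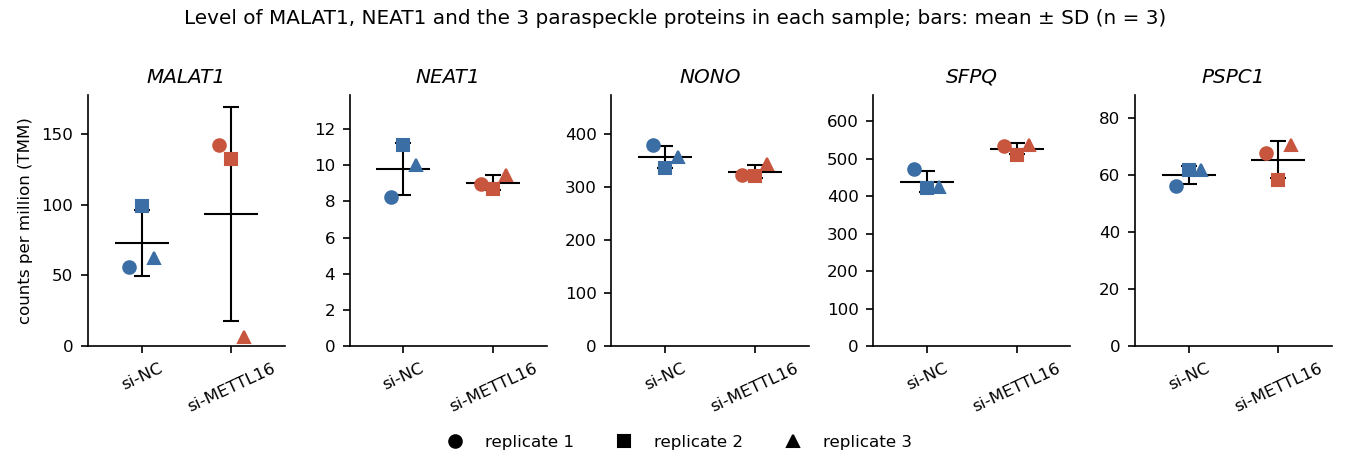
CPM of MALAT1, NEAT1, NONO, SFPQ and PSPC1 in each si-NC (blue) and si-METTL16 (red) sample, with circles, squares and triangles for replicates 1, 2 and 3 and with the mean ± SD (n = 3). MALAT1 in si-METTL16 replicate 3 sits at 6.62 CPM, under all other samples, while the SFPQ points of si-METTL16 all lie above those of si-NC.

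One library decided the MALAT1 value. Without si-METTL16 replicate 3, the log2 fold change of MALAT1 was 0.92 with an SE of 0.24 and an adjusted p of 0.0328 by edgeR, past the threshold as higher. Without si-METTL16 replicate 1 it was -0.072, with an adjusted p of 0.964. The direction with all samples kept also depended on the test. It was positive in edgeR without a block and in the DESeq2 Wald test (0.35). It was negative with a replicate block (-0.25) and in limma on voom values (-0.56). In limma on log2 FPKM it was also negative (-0.069 with a pseudocount of 1 and -0.41 with 0.1). None of these gave a call.

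**Figure D2:**
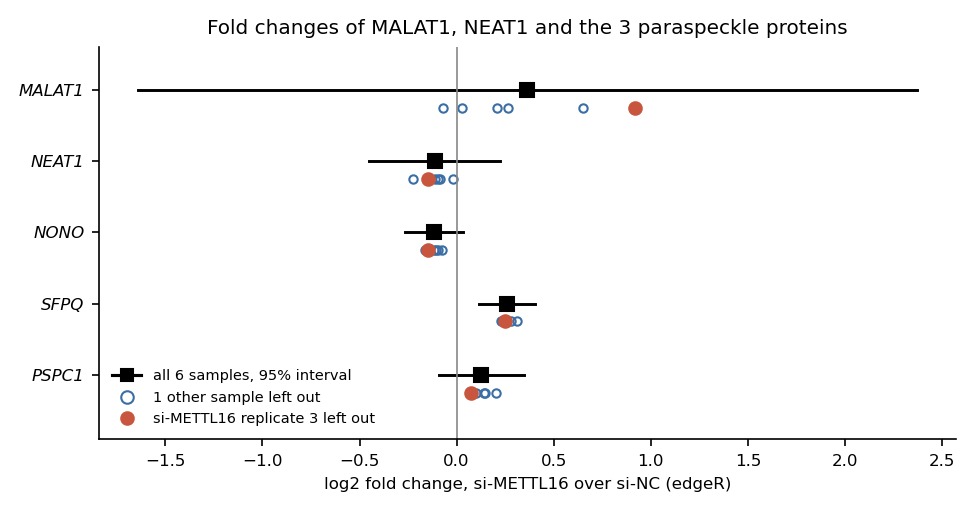
Log2 fold change of each gene (si-METTL16 over si-NC, edgeR), with black squares and lines for all 6 samples and the 95% interval, open blue circles for fits without 1 other sample, and red circles for the fit without si-METTL16 replicate 3. The red circle of MALAT1 lies at 0.92, to the right of its open circles, which start at -0.072. For every gene, MALAT1 included, all circles lie within the 95% interval.

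In si-METTL16 replicate 3, the log2 CPM of MALAT1 differed by -4.35 from the mean of replicates 1 and 2, a level 20.3-fold lower. This made it the gene with rank 10 from the lowest among 15089. The other 4 genes deviated little in that library: NEAT1 by 0.10, NONO by 0.10, SFPQ by 0.04 and PSPC1 by 0.16 log2 units. The library as a whole did not stand apart from si-METTL16 replicates 1 and 2 on this measure. It had 45 genes more than 4-fold below and 42 genes more than 4-fold above the other replicates of its group. The other 5 libraries, each set against its own group, had 47 to 54 and 23 to 45 such genes. The si-NC libraries had 48 to 51 below and 23 to 32 above. Replicates 1 and 2 were set against means that hold replicate 3, so its own low genes enter their counts above. MALAT1 is 1 of them, at 2.25 and 2.10.

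**Figure D3:**
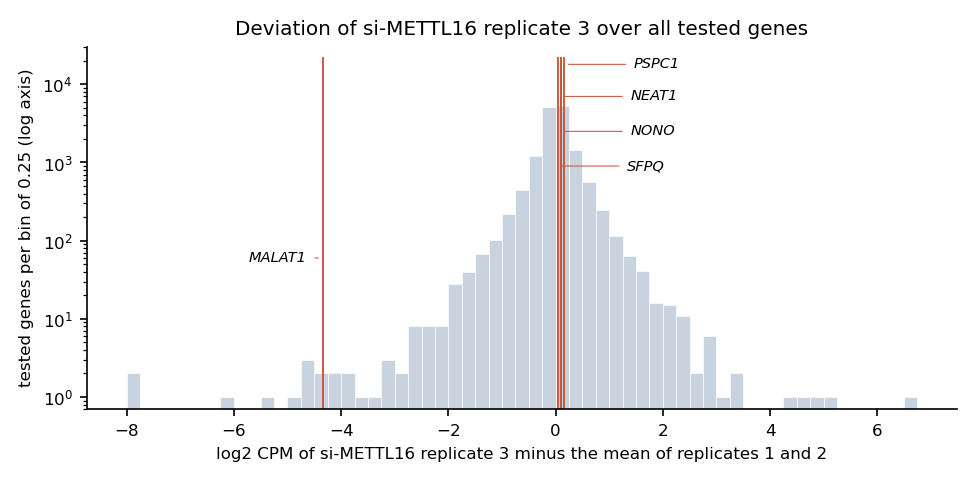
Number of tested genes (log axis) by the difference in log2 CPM between si-METTL16 replicate 3 and the mean of replicates 1 and 2, with red lines at the 5 genes. NEAT1, NONO, SFPQ and PSPC1 fall at the centre of the distribution, and MALAT1 falls in the sparse left tail at -4.35.

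The table rows that overlap MALAT1 had few counts in every library. AP000769.2, a lncRNA gene on the opposite strand that overlaps MALAT1 by 396 bases, had 0 counts in the si-NC samples and 0, 2 and 3 in the si-METTL16 samples. The mascRNA row had 1 count in 4 libraries and 0 in si-METTL16 replicates 2 and 3, and RF01871, a small RNA annotation within MALAT1, had 1 count in each library. The RF01871 value did not vary while MALAT1 ran from 119 to 2325 counts, so it is not read here as a level. Of the 45 genes more than 4-fold below in si-METTL16 replicate 3, 75.6% overlapped another tested gene, and of the 42 genes more than 4-fold above, 59.5% did, beside 37.9% of all tested genes. MALAT1 is among the genes with no such overlap. Why MALAT1 was low in this library was not tested.

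The 5 genes closest to MALAT1 in their pattern over the 6 samples were NUDT4, AS3MT, TGIF2, IER2 and DET1, out of 13919 genes with a symbol. Likeness was measured as the root mean square difference between log2 CPM values centred on each gene's mean, and it was 0.28 for NUDT4 and between 0.47 and 0.73 for the other 4 genes. NUDT4, a diphosphoinositol polyphosphate phosphohydrolase, had 761, 868 and 919 counts in si-NC and 1299, 1093 and 78 counts in si-METTL16. IER2, an immediate early gene, had 1140, 1080 and 994 counts in si-NC and 565, 1163 and 71 in si-METTL16. As the measure favours by its construction, all 5 genes were lowest in si-METTL16 replicate 3. They lie on chromosomes 12, 10, 20, 19 and 15, away from MALAT1 on chromosome 11.

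NEAT1 did not pass the test, and its libraries lay close together. NEAT1 (ENSG00000245532, chr11:65422774-65445540, plus strand) had 139, 188 and 175 counts in si-NC and 147, 135 and 170 counts in si-METTL16. These were 8.23, 11.1 and 9.98 CPM and 8.96, 8.66 and 9.46 CPM. All si-METTL16 values fell within the range of the controls. The means were 9.76 ± 1.44 and 9.02 ± 0.405 CPM, with a log2 fold change of -0.11, an SE of 0.14 and an adjusted p of 0.575 by edgeR. The 95% interval of NEAT1, from -0.45 to 0.23, does not include a 2-fold change in either direction.

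At the gene level the long and the short NEAT1 isoform cannot be told apart. The menRNA row was at 0 in all 6 libraries, which from counting error alone allows up to 0.166 to 0.191 CPM in the libraries. Whether the preparation keeps so short an RNA is not given, so the counts do not bound its level in the cells. MIR612, a microRNA gene inside NEAT1, had 1 count in si-NC replicate 3 and 0 elsewhere, and the small RNA annotations RF01955, RF01956 and RF01957 at the NEAT1 5′ end had 1 count in every library. Values constant at 1 are not read here as levels. The library kit is named as an mRNA kit and its priming is not given, so a low level of an RNA without a poly(A) tail may differ from its level in the cells. Genes closest to NEAT1 in pattern were APRT, PTCD2, LRRC49, HERC2P9 and ICAM3, at root mean square differences of 0.036 to 0.049. Their profiles, like that of NEAT1, were nearly flat, which many genes share.

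The ratio of the lncRNAs within each library needs no scaling between libraries. MALAT1 had 6.84, 8.96 and 6.23 counts for each NEAT1 count in the si-NC replicates, and 15.8, 15.3 and 0.70 in the si-METTL16 replicates. MALAT1 thus had more counts than NEAT1 in 5 libraries and fewer in si-METTL16 replicate 3. Per kilobase of the full span MALAT1 was above NEAT1 in that library too, at 0.750 against 0.415 CPM per kb, as in the other 5. The order in that library depends on the NEAT1 length used. If all NEAT1 counts came from the short isoform, the NEAT1 mean in si-METTL16 would be 2.45 CPM per kb, above that MALAT1 value. The mean log2 ratio of NEAT1 to MALAT1 was -2.86 ± 0.27 in si-NC and -2.47 ± 2.58 in si-METTL16, a difference of 0.39 with p = 1 by a two-sided exact permutation test. Without si-METTL16 replicate 3 the difference was -1.10 with an exact p of 0.1, the smallest that either design allows.

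The mRNAs of the paraspeckle core proteins had far more counts per kilobase than NEAT1. These are RNA values and do not give protein levels. The library kit is named as an mRNA kit. The levels of MALAT1 and of the long NEAT1 isoform, which have no poly(A) tail, may therefore differ in the cells. Per kilobase of transcript (the MANE Select transcript for the proteins, the annotated span for the lncRNAs), the si-NC means were 134 ± 8.12 CPM per kb for NONO, 117 ± 7.56 for SFPQ, 24.7 ± 1.29 for PSPC1, 8.22 ± 2.64 for MALAT1 and 0.429 ± 0.0632 for NEAT1. NONO and SFPQ were neighbours in this order whose si-NC values overlapped. In si-METTL16 samples SFPQ stood first at 141 ± 3.93 CPM per kb and NONO next at 124 ± 4.92, without overlap, followed by PSPC1 at 26.9 ± 2.66, MALAT1 at 10.6 ± 8.54 and NEAT1 at 0.396 ± 0.0178. If all NEAT1 counts came from the short isoform, whose span is 3684 bases, NEAT1 would be at 2.65 CPM per kb in si-NC and 2.45 in si-METTL16. These are still under the MALAT1 mean of each group, but 2.45 is above MALAT1 in si-METTL16 replicate 3 (0.750). The deposited FPKM values gave another scale, because they divide by a length of 21436 bases for MALAT1 and 38712 bases for NEAT1, or 2.43 and 1.70 times the genomic span of each gene.

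SFPQ rose modestly. SFPQ, a splicing factor of the DBHS family that is needed for paraspeckles, lies at chr1:35176378-35193148 on the minus strand. It was at 472, 422 and 424 CPM in si-NC and at 534, 509 and 535 CPM in si-METTL16. Every si-METTL16 value exceeded every si-NC value. The means were 439 ± 28.3 and 526 ± 14.7 CPM (SD, n = 3 each), a log2 fold change of 0.26 with an SE of 0.06, and an adjusted p of 0.0146 by edgeR. Without si-NC replicate 3 the change in SFPQ was 0.23 and the adjusted p was 0.0562, past the threshold no longer.

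NONO and PSPC1, the DBHS partners of SFPQ, did not pass. NONO (chrX:71283192-71301168, plus strand), which pairs with SFPQ and is essential for paraspeckles, was at 379, 335 and 357 CPM in si-NC and at 323, 321 and 344 CPM in si-METTL16. Its values overlapped between groups, with a log2 fold change of -0.12, an SE of 0.06 and an adjusted p of 0.195 by edgeR. PSPC1 (chr13:19674752-19783019, minus strand), which marks paraspeckles and is not required for them, was at 56.4, 61.8 and 61.9 CPM in si-NC and at 68.0, 58.2 and 70.5 CPM in si-METTL16. Its values also overlapped, with a log2 fold change of 0.13, an SE of 0.09 and an adjusted p of 0.322. The 95% intervals were -0.26 to 0.03 for NONO and -0.09 to 0.34 for PSPC1. The NONO interval does not include a rise as large as that of SFPQ, and the PSPC1 interval does. Pseudogene rows held 6.5% of the counts of NONO and its pseudogenes together, so reads may be split between them, against 0.0157% for PSPC1 and 0 counts for SFPQ. PSPC1-AS2, which overlaps PSPC1 by 1133 bases on the opposite strand, had 5 counts in si-NC replicate 3 and 0 elsewhere.

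Other proteins reported in paraspeckles moved in both directions. Of 25 such genes tested, 5 rose, 2 fell and 18 did not pass, with a median log2 fold change of 0.09 against -0.00 over all tested genes, where 35.9% passed. HNRNPH3, an hnRNP protein needed for paraspeckles, rose from 203, 206 and 203 CPM to 426, 414 and 410 CPM (log2 fold change 1.03, SE 0.05, adjusted p = 8.3e-05 by edgeR). RBM14, whose prion-like domain holds paraspeckles together, rose by 0.68, as did CPSF7, a cleavage factor subunit, each without overlap between groups. RBM3, a cold-inducible RNA-binding protein, fell by 0.75, from 306 to 335 CPM down to 174 to 214 CPM, and HNRNPR fell by 0.33. HNRNPK and TARDBP, which act in paraspeckle assembly or NEAT1 processing, had log2 differences of -0.04 and 0.33 and did not pass. They and the next 2 genes were chosen after their values were seen. RBM12 was at 28.6 to 33.9 CPM in 5 libraries and at 108 CPM in si-METTL16 replicate 3, and ZNF24 was at 45.0 to 57.8 CPM in 3 libraries and 221 to 235 CPM in the other 3, with both kinds in each group.

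Genes for the enzymes that process the 3′ ends of MALAT1 and NEAT1 likewise did not move one way. RNase P makes the cut, RNase Z (ELAC2) trims the tRNA-like RNA and TRNT1 adds CCA to mascRNA. Of 13 genes tested out of 14, 2 rose, 3 fell and 8 did not pass, with a median log2 fold change of -0.00. The share that passed, 38.5%, was near the 35.9% of all tested genes. The RNase P subunits RPP30 and RPP40 rose by 0.45 and 0.42, while POP4, RPP25L and RPP25 fell by 0.84, 0.55 and 0.41. POP4 was at 49.8, 32.5 and 27.6 CPM in si-NC and at 21.1 CPM or less in each si-METTL16 sample, lower than in any control. ELAC2 and TRNT1 had log2 differences of 0.23 and -0.07, with adjusted p-values of 0.0891 and 0.695 by edgeR. RPPH1, the RNA of RNase P, had under 0.5 CPM in each library and was not tested. The count of calls in this list fell to 2 without si-METTL16 replicate 1 or replicate 2 and to 3 without si-METTL16 replicate 3 or si-NC replicate 3. In these fits the calls over all genes fell too, from 5418 to between 4159 and 4526.

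Nuclear speckle genes, which encode the scaffold, SR proteins and kinases of the compartment where MALAT1 resides, passed in 11 of 21 cases. There were 7 that rose and 4 that fell, with a median of 0.06. This was 52.4% of the list, beside 35.9% of all tested genes. SRSF4, an SR splicing factor, rose from 53.5, 56.6 and 55.8 CPM to 105, 106 and 99.1 CPM (log2 fold change 0.91, SE 0.06, adjusted p = 0.000162 by edgeR). RNPS1, a splicing activator, rose by 0.84 and SRSF3 by 0.29. The kinase SRPK2 fell by 0.60, the scaffold protein SRRM1 by 0.43 and SRSF6 by 0.40. SRSF1, which MALAT1 is known to bind, had a log2 difference of 0.25 and an adjusted p of 0.146.

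**Figure D4:**
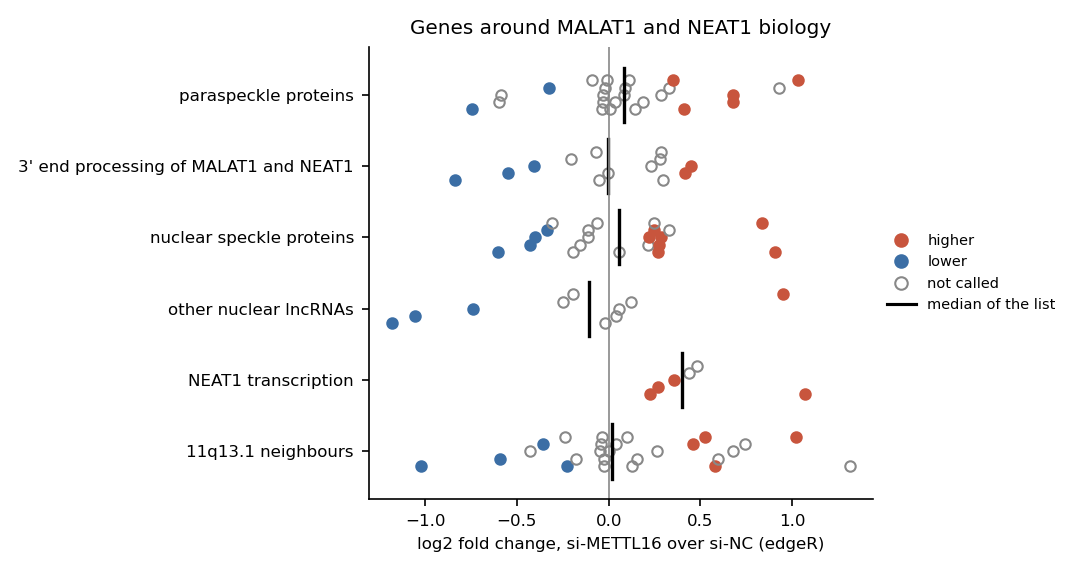
Log2 fold change of each tested gene (si-METTL16 over si-NC, edgeR) in the lists of paraspeckle proteins, 3′ end processing enzymes, nuclear speckle proteins, other nuclear lncRNAs, factors acting on NEAT1 transcription and genes near NEAT1 and MALAT1. Red points rose, blue points fell, open points did not pass, and the black bar is the median of the list, which is 0.40 for the NEAT1 transcription factors and between -0.11 and 0.09 for the other lists.

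Other lncRNAs, listed as largely or partly nuclear, moved in both directions. Their location in these cells was not measured. Of 10 tested out of 15 listed, 1 rose, 3 fell and 6 did not pass, with a median of -0.11. The share that passed, 40%, was near the 35.9% of all tested genes, and above that of all tested lncRNA genes, given below. OIP5-AS1, a lncRNA that is also cytoplasmic, fell from 219, 189 and 199 CPM to between 75.2 and 100.2 CPM (log2 fold change -1.18, SE 0.11, adjusted p = 0.000421 by edgeR). HOTAIR, which is transcribed from the HOXC cluster, fell by 1.06, and NORAD, a lncRNA that binds Pumilio proteins, fell by 0.74. MEG3, an imprinted lncRNA, rose by 0.95, from 22.4 to 31.1 CPM up to 49.6 to 59.6 CPM. Over all 1115 lncRNA genes tested, 160 rose and 84 fell, with a median of 0.06. This is a smaller share than in the list, and the difference was not tested.

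The factors known to act on the NEAT1 promoter were higher or did not pass. The list does not separate factors that raise NEAT1 from factors that lower it. NEAT1 itself had a log2 difference of -0.11, and its relation to these factors was not tested. Of 6 tested, 4 rose and 0 fell, with a median of 0.40, while 18.4% of all tested genes rose and 17.5% fell. BRCA1, a DNA repair protein, rose from 14.7, 14.4 and 17.1 CPM to 33.8, 32.4 and 30.9 CPM (log2 fold change 1.07, SE 0.10, adjusted p = 0.000393 by edgeR). The stress-responsive factor ATF2 rose by 0.36, and the hypoxia factors EPAS1 and HIF1A rose by 0.27 and 0.23 with adjusted p-values of 0.0436 and 0.0374. HSF1, the heat shock factor, had a log2 difference of 0.48 and did not pass (adjusted p = 0.0933 by edgeR). The count of 4 was 2 without si-METTL16 replicate 1 or replicate 3. Over all genes the calls were 5418 with all samples, and 4481 and 4526 in these fits, in that order.

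Genes around NEAT1 and MALAT1 did not share a direction. Of 54 genes within 300000 bases, 26 were tested, 4 rose and 4 fell, with a median of 0.02. These were 30.8% of the tested neighbours, near the 35.9% of all tested genes. The highest among those that rose were POLA2, a subunit of DNA polymerase alpha, by 1.02, and PCNX3 by 0.58. Upstream of NEAT1 the nearest tested genes were FRMD8 (-0.04), SLC25A45, a mitochondrial carrier that fell by 1.02, TIGD3 (-0.00) and DPF2 (0.27), all as log2 differences. AP000769.1, a transcribed pseudogene between NEAT1 and MALAT1, had 150, 296 and 335 counts in si-NC and 444, 431 and 324 in si-METTL16, a log2 difference of 0.68 with an adjusted p of 0.117 by edgeR. Downstream of MALAT1, LTBP3, a TGF-beta binding protein, fell by 0.59, the antisense gene SSSCA1-AS1 had a difference of 0.74 and did not pass, and SSSCA1 rose by 0.53. The annotated spans of SSSCA1-AS1 and SSSCA1 do not overlap. Whether counting used strand is not given, so reads from overlapping genes on opposite strands cannot be told apart.

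**Figure D5:**
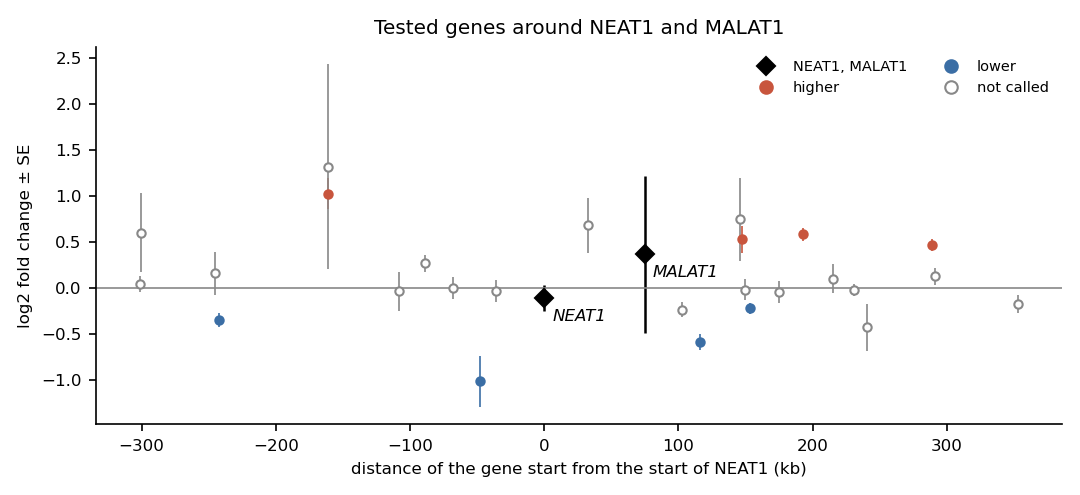
Log2 fold change ± SE (edgeR) of the tested genes within 300000 bases of the NEAT1 and MALAT1 span against the distance of the gene start from the start of NEAT1 in kb. Black diamonds are NEAT1 and MALAT1, red points rose, blue points fell and open points did not pass; higher and lower genes lie on both sides, and MALAT1 has one of the longest error bars, an SE of 0.85.

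The study's reference genes were also compared. GAPDH had a log2 difference of -0.10 (adjusted p = 0.398 by edgeR) and ACTB one of 0.28 (adjusted p = 0.0561), which is close to the change of SFPQ. The ACTB groups did not overlap. The estimate for SFPQ, 0.26, was above that of GAPDH and not above that of ACTB, and these differences were not tested. TMM, median-ratio and upper quartile scaling each left SFPQ higher in si-METTL16.

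The siRNA target sequences listed by the study are given because they define the treatment. The sources do not say which of them was used for sequencing. Capitals mark the bases that pair with positions 2 to 8 of the guide strand.
METTL16-1: ccttgagactcAACTATAt
METTL16-2: ccgcctagttcTGTTAATa
METTL16-3: ccaccaagtaaGCGAAGAa
In GRCh38 they match the coding sequence of METTL16 on the minus strand, at chr17:2477757-2477775 in exon 3, chr17:2464302-2464320 in exon 6 and chr17:2420883-2420901 in exon 9 of 10 exons. The longest exact run that any of them shared with MALAT1 or NEAT1 was 8 of 19 bases. Runs that long occurred in 50.7% to 76.3% of windows of MALAT1 length on chromosome 11. For windows of NEAT1 length the share was 82.5% to 96.0%. The capital letters of METTL16-1 occurred 2 times in MALAT1, those of METTL16-2 0 times and those of METTL16-3 1 time, while 48.9%, 54.5% and 6.48% of 15222 windows of the same length on chromosome 11 held them. In NEAT1 they occurred 0, 4 and 0 times, while 77.5%, 82.8% and 16.0% of 5895 windows of its length held them.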

How the data were processed

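RNA-seq was performed by the authors on 6 PANC-1 samples, grouped and numbered here by their titles. Per gene and sample, the authors deposited the raw count and an FPKM value, the count scaled by a gene length and the library total. The submitters' processing notes name HISAT2 2.0.4, StringTie 1.3.0 and GRCh38. The counting program, the annotation release and the use of strand are not given in the sources used here. Gene coordinates are those of the table. Of 58735 identifiers, 58207 were found in GENCODE v44, and 27 symbols corrupted to dates were restored. The length implied by FPKM exceeded the merged exons of genes with 2 to 5 transcripts (median 1.38 times, 943 genes), so FPKM understates such genes.

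Counts were filtered by filterByExpr (minimum count 10, minimum total count 15) and scaled by TMM. The quasi-likelihood F test of edgeR 4.0.16 (R 4.3.3) was applied to 15089 genes, and p-values were adjusted by Benjamini-Hochberg, with a threshold of 0.05. The SE is the log2 fold change divided by the root of F. Centred log2 CPM used a prior count of 2. Scripts were tested on simulated counts. The common biological coefficient of variation was 16.5%, and totals of 15725298 to 18054436 counts limit the precision of low genes such as NEAT1. Alternatives were a replicate block, each sample left out, DESeq2 median-ratio and upper quartile scaling, no filter, at least 10 counts in every sample, the DESeq2 1.42.0 Wald test, limma 3.58.1 on voom values or on log2 FPKM (pseudocounts 1 and 0.1, mean FPKM of 1 or more), and an adjusted p under 0.01. No libraries were alike within sampling noise. The sources do not say what separated the biological triplicates, and p-values measure the spread between these samples.

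The genes and lists were chosen with earlier results of these data known. Beyond the 5 genes and METTL16, genes were named by rule: the 3 highest and 3 lowest called genes of each list, all genes of lists with 6 or fewer tested genes, the 4 nearest tested neighbours on each side, genes overlapping 1 of the 5 genes, the 5 genes nearest in pattern to each lncRNA, GAPDH and ACTB. Cell type markers came from a separate list. ELAC2, TRNT1, RPPH1, SRSF1, HNRNPK, TARDBP, RBM12 and ZNF24 fall outside the rule and were chosen after their values were seen. Some genes that this rule takes are not reported here. Sequences were read from GRCh38, GENCODE v44 and the study's siRNA list with Python 3.11.15, and tRNA-like RNAs were aligned with Biopython 1.88.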

Additional observations from a re-analysis of the deposited data

How the results depend on the processing

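The log2 fold change of MALAT1 stayed positive with the DESeq2 Wald test (0.35). It turned from 0.36 to -0.25 with the replicate block and to -0.56 with limma on voom values. With limma on FPKM it was -0.069 at a pseudocount of 1 and -0.41 at 0.1. Leaving out each sample gave -0.072 to 0.92, with a call without si-METTL16 replicate 3. The cause was not tested. SFPQ remained at 0.26 but missed an adjusted p under 0.01, and ranged from 0.23 to 0.31 with each sample left out, with the call lost without si-NC replicate 3. NEAT1 (-0.23 to -0.02), NONO (-0.16 to -0.08) and PSPC1 (0.07 to 0.20) kept their direction and stayed without a call in all alternatives that gave a value. NEAT1 had a mean FPKM under 1 and so has no value in the FPKM fits. The difference in the log2 ratio of NEAT1 to MALAT1 was 0.39 and ranged from -1.10, without si-METTL16 replicate 3, to 1.15 with each sample left out. Of the 5 genes, 0 to 2 were called with each sample left out (0 without si-NC replicate 3, 2 without si-METTL16 replicate 3) and 0 at an adjusted p under 0.01. At that threshold the calls were 1 of 13 for 3′ end processing, 7 of 21 for nuclear speckle proteins, 4 of 26 for neighbours and 2 of 6 for NEAT1 transcription, beside 3035 of 15089 genes. NEAT1 transcription also had 2 calls with upper quartile scaling, no filter or the DESeq2 Wald test, and 1 call in each FPKM fit, in which 5 of its genes were tested. Over all genes these settings gave 5443, 4506 and 5276 calls, in that order, and the FPKM fits 4660 and 4625. The fit without a filter tested 28883 genes and the FPKM fits 11513. With each sample left out the calls ranged from 6 to 8 for paraspeckle proteins, 2 to 5 for 3′ end processing, 8 to 11 for nuclear speckle proteins, 4 to 4 for other nuclear lncRNAs, 2 to 3 for NEAT1 transcription and 5 to 7 for neighbours (5 without si-NC replicate 1). Over all genes the calls also fell with each sample left out, from 5418 of 15089 to between 4159 and 4526. Those fits tested 15407 to 15488 genes. Deviations of same-numbered samples correlated at 0.025, 0.037 and 0.030, so the numbers were not taken as pairs, and the replicate block moved the calls over all genes from 5418 to 5013. With 3 samples a group, an exact permutation test cannot give a p under 0.1. The depth gave NEAT1 135 to 188 counts per library, and counting error alone limits its precision more than that of SFPQ.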
